A study of Mus musculus with 4 samples.

Results

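Genes that encode zinc finger proteins, chosen by symbol (Zfp, Zbtb, Zscan, Zkscan, Zhx, Zc3h, Zcchc, Zmynd or Zmym, Zdhhc and Zmiz), made up 27 of the 2701 genes in a table of differences between 2 genotypes of mouse pyloric stomach. Within that table, which holds only genes with an adjusted p of 0.05 or less, the rule reads names alone. RNA was sequenced from frozen sections 10 µm thick of the pylorus of C57BL/6 mice, labelled as pyloric epithelium, 8 weeks after tamoxifen. WT mice carried Lats1fl/fl;Lats2fl/fl without Cre (2 libraries), and the mice labelled Lats1/2iΔLgr5 carried the same floxed alleles with Lgr5-CreER (2 libraries), which tamoxifen activates in Lgr5-expressing gland-base stem cells. LATS1 and LATS2 are the Hippo kinases that restrain YAP and TAZ. The question is how transcript levels differ when both kinase genes are deleted. Only the Lats1/2iΔLgr5 mice carry the Lgr5-CreER allele, so an effect of that allele cannot be told apart from the deletion. Sections hold all cells of the tissue, recombined or not, and in such bulk RNA fewer cells of a type and less RNA per cell cannot be told apart. The labels do not say that the 2 libraries of a group came from separate mice, so p-values measure the spread between these libraries only.

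A zinc finger is a short protein fold held together by a zinc ion that cysteines and histidines grip. In the C2H2 type, tandem fingers read DNA bases, and an attached KRAB or BTB domain often recruits repressors to the site. CCCH and CCHC fingers mostly bind RNA, and the DHHC cysteine-rich domain belongs to membrane enzymes that attach palmitate to proteins. The symbols therefore join transcription factors, RNA-binding proteins and enzymes.

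The coding sequences below show the first C2H2 finger of 6 members, with the codons of the zinc-binding cysteines and histidines in capitals. They are 2 members of the Zbtb7 family, which fell together, the 3 members that matched a KRAB pattern, and Zfp41, the most increased Zfp gene. All are from GENCODE M21 transcripts on GRCm38 and are written 5′ to 3′ along the coding strand.
Zbtb7a (chr10:81145105-81145167, plus strand): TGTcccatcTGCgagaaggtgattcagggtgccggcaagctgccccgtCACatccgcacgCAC
Zbtb7b (chr3:89380394-89380456, minus strand): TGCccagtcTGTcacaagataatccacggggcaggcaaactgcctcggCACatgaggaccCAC
Zfp53 (chr17:21508388-21508450, plus strand): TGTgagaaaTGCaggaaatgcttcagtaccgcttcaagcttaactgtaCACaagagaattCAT
Zfp809 (chr9:22238677-22238742, plus strand): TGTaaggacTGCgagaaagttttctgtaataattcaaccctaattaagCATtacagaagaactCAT
Zfp1 (chr8:111669901-111669963, plus strand): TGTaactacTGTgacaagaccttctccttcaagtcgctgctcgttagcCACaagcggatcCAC
Zfp41 (chr15:75618465-75618527, plus strand): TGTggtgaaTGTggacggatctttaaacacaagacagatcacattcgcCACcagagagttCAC
The first fingers of Zbtb7a and Zbtb7b were identical at 44 of 63 bases (69.8%). Identity is not particular to this family, as the first fingers of Zfp623 and Zscan29 were identical at 47 of 63 bases (74.6%).

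Against WT, 15 of the zinc finger genes were higher and 12 were lower in Lats1/2iΔLgr5. Every row of the table had an adjusted p of 0.05 or less in the authors' deposited table, so that each member passed was fixed by the selection, and only direction and size are informative. The authors tested about 13141 genes, a number inferred from their p-values, of which 20.6% are listed, 8.81% as higher and 11.7% as lower. The members were higher in 55.6% of cases and all listed genes in 42.9%. Their median log2 fold change (edgeR, on the size factors of the authors) was 0.63, against -0.50 over all listed genes. No listed gene lay between -0.36 and 0.37, so these medians mainly repeat which direction held more genes. Within each direction the members changed less: the median was 0.88 for higher members and 1.09 for all higher genes. For lower members it was -0.63, and -0.73 for all lower genes. Changes were small: 4 members (14.8%) changed by 1 or more on the log2 scale in either direction, compared with 40.1% of listed genes. The median adjusted p in the authors' deposited table was 0.0216 for the members and 0.00536 for all listed genes. The 2 groups of libraries did not overlap in any of the 27 members, which describes 99.9% of listed genes as well.

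**Figure D1:**
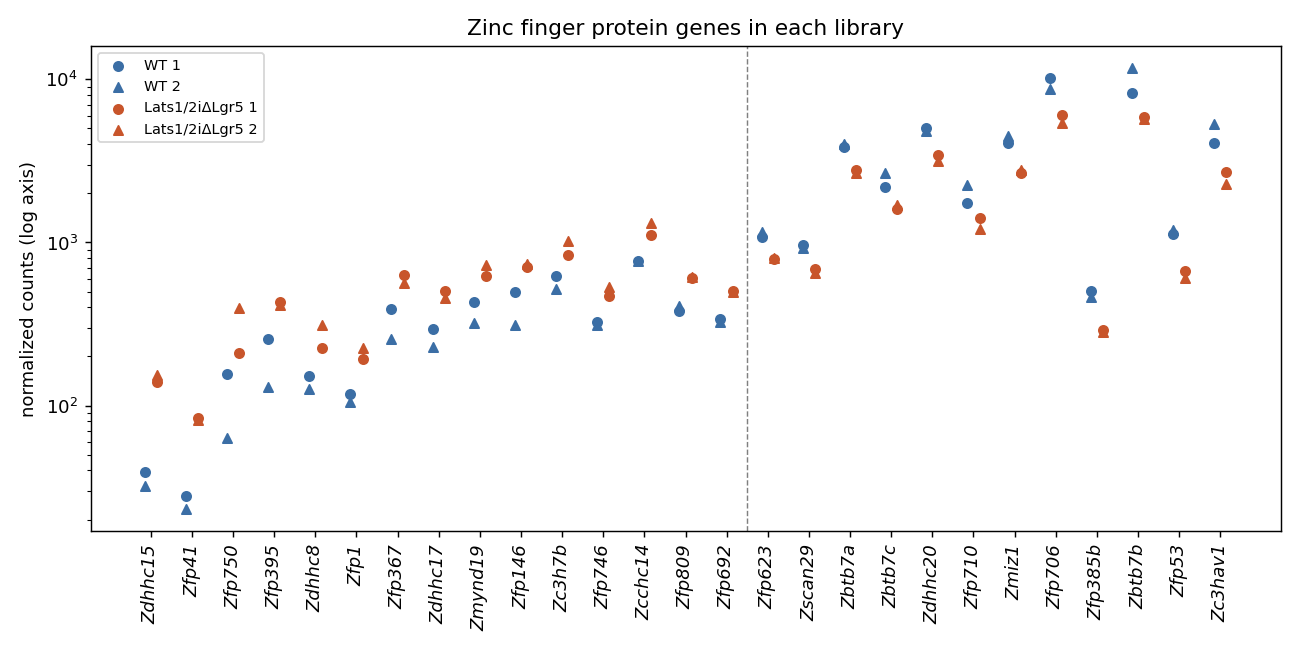
Normalized counts (log axis) of each zinc finger gene in each library, ordered from the largest rise to the largest fall; blue marks WT, orange Lats1/2iΔLgr5, circles replicate 1 and triangles replicate 2, and the dashed line parts the 15 higher from the 12 lower genes. The groups do not overlap in any gene, and WT 1 and WT 2 lie furthest apart for Zfp750.

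How counts are scaled between libraries decides part of this. The size factors recovered from the deposited base means were 0.792 and 0.907 in WT and 1.10 and 1.28 in Lats1/2iΔLgr5. All 15 rises kept their direction and their edgeR call under each of the 3 other scalings tried (TMM, DESeq2 median ratios, and totals of listed counts). Listed genes called higher numbered 1157, 1157 and 1158 under these, where 1158 were higher in the table, so this is not particular to the members. Each of the 3 also moved fold changes up in the median, which favours rises. The 12 falls kept their direction with TMM and with median ratios, but with totals of listed counts 7 of them turned positive: Zbtb7a, Zbtb7c, Zdhhc20, Zfp623, Zfp710, Zmiz1 and Zscan29. With TMM only Zc3hav1 and Zfp53 were still called lower by edgeR, 2 of all 27 members, against 494 of 2700 listed genes (18.3%). The called members then split 15 higher to 2 lower. With median ratios 1 of the 27 was called lower (against 432 of 2700 listed genes, 16.0%), and with totals none (173 of 2700, 6.41%). TMM moved the log2 fold change of all listed genes up by 0.36 in the median, median ratios by 0.41 and totals by 0.69. All 3 were computed from genes already selected for a difference. Below, rose and fell are on the scale of the authors.

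**Figure D2:**
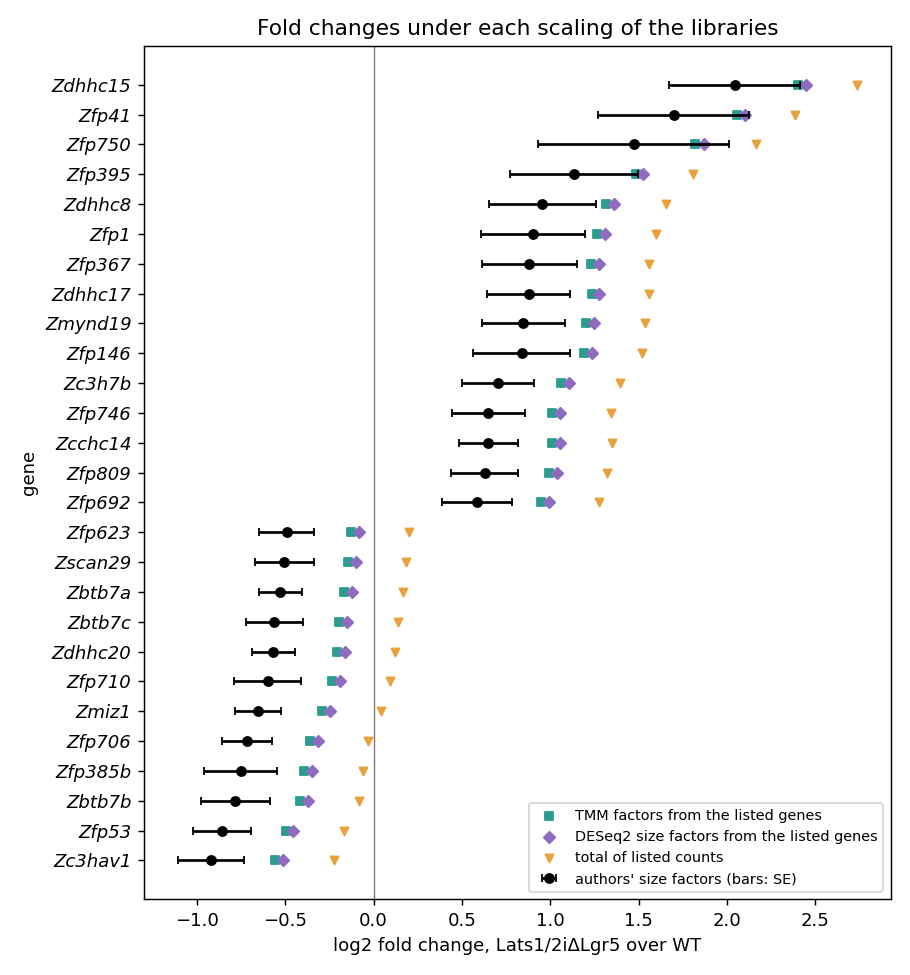
Log2 fold change of each zinc finger gene (Lats1/2iΔLgr5 over WT) on the size factors of the authors (black, bars are 1 standard error) and under 3 other scalings (coloured symbols). The 15 rises stay right of 0 throughout, whereas 7 of the 12 falls cross 0 when libraries are scaled to the total of listed counts.

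The Zbtb genes join a BTB/POZ domain, which pairs proteins and recruits corepressors, to C2H2 fingers. Of 41 annotated, 3 were listed (7.32%, against 11.9% of all annotated protein-coding genes). All 3 belong to the Zbtb7 family, and all 3 fell, where 57.1% of all listed genes were lower. Zbtb7a, a repressor also known as LRF or Pokemon (chromosome 10, 81135220 to 81152995, GRCm38), stood at 3824 and 4014 normalized counts in WT and at 2778 and 2661 in Lats1/2iΔLgr5. Replicates lay close together and the groups were apart. The mean fell from 3919 ± 134 to 2719 ± 83.0 (SD, n = 2), and the log2 fold change was -0.53 ± 0.12 (SE). Zbtb7b, known as ThPOK for its part in directing T cells to the CD4 lineage (chromosome 3, 89377644 to 89394776), had 8223 and 11743 in WT and 5866 and 5735 in Lats1/2iΔLgr5. Its WT libraries differed 1.43-fold, and its log2 fold change of -0.78 ± 0.19 (SE) was -0.50 without WT replicate 2. Zbtb7c (chromosome 18) had 2196 and 2678 in WT and 1600 and 1702 in Lats1/2iΔLgr5, a log2 fold change of -0.56 ± 0.16 (SE). With TMM, none of the 3 passed (edgeR adjusted p = 0.217, 0.0764 and 0.254 for Zbtb7a, Zbtb7b and Zbtb7c), and Zbtb7a and Zbtb7c turned to 0.17 and 0.14 on totals of listed counts. Per kilobase of exon, Zbtb7b stood at 1786 normalized counts in WT, Zbtb7a at 575.6 and Zbtb7c at 515.0. The coding sequence of each matched the C2H2 pattern 3 times. T cell markers Cd3e, Cd3d, Cd4 and Cd8a had no row, and their part in the Zbtb7b values was not tested.

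Genes with long arrays of C2H2 fingers were rarely listed. The pattern searched was a pair of cysteines spaced by 2 to 4 residues, 12 residues, and a pair of histidines spaced by 3 to 5, in the longest translated transcript. Of 362 annotated genes with a zinc finger symbol and 5 or more matches, 8 were listed (2.21%), and of 229 with a KRAB-type pattern, 3 (1.31%). Among the 313 without that pattern 24 were listed (7.67%), and among all 21951 annotated protein-coding genes 2608 (11.9%). Both patterns were loosened after their first counts had been seen. In all, 3 versions of the KRAB pattern were run, which matched 191, 229 and 240 annotated genes with 3 listed each time (1.57%, 1.31% and 1.25%), and the listed genes were Zfp1, Zfp53 and Zfp809 in each. With the cysteines spaced by 2 residues only, 7 of 350 genes with 5 or more matches were listed (2.00%). A gene without a match to the KRAB pattern may still carry the domain, as Zfp746 is known to. How many of these annotated genes were tested was not analysed here, so the shares also reflect which genes had enough reads. The 8 listed genes with long arrays split 4 to 4, as did the 10 with 1 to 4 matches (5 to 5).

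**Figure D3:**
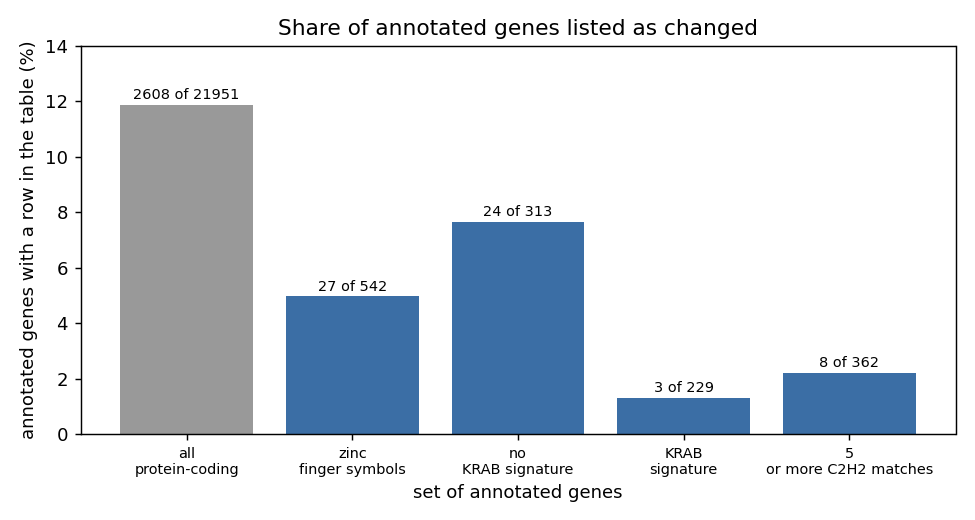
Share of annotated mouse genes that have a row in the table (%, from 0), for all protein-coding genes (grey) and for those with zinc finger symbols, in all and split by a KRAB-type pattern or by 5 or more C2H2 matches (blue). The number of listed and annotated genes stands over each bar, from 2608 of 21951 down to 3 of 229.

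KRAB zinc finger proteins bind DNA, often in retroelements, and silence it through the corepressor TRIM28. The 3 listed here were Zfp53, Zfp1 and Zfp809, with 16, 8 and 7 finger matches. Zfp53 (chromosome 17, 21491256 to 21509764) had 1124 and 1187 normalized counts in WT and 669.1 and 604.9 in Lats1/2iΔLgr5. It fell in both libraries to well below WT, with a log2 fold change of -0.86 ± 0.17 (SE). Its adjusted p was 0.000158 (the authors' deposited table). With TMM the fall of Zfp53 passed (edgeR adjusted p = 0.0419), but it did not with DESeq2 median ratios (0.0614) or with totals of listed counts (0.534, log2 fold change -0.17). Zfp809, which recognises the primer binding site of murine leukaemia virus, had 382.4 and 407.0 in WT and 602.1 and 618.2 in Lats1/2iΔLgr5. The rise of 0.63 ± 0.19 (SE, log2) came with little spread, as the libraries differed by a factor of 1.06 within WT and 1.03 within Lats1/2iΔLgr5. Zfp1 rose from 111.6 ± 8.12 to 208.5 ± 23.4 (SD, n = 2), or by 0.90 ± 0.29 (SE, log2). Reads of KRAB genes may be shared between similar copies, and the sources used here do not give the authors' treatment of such reads.

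The other long-array genes were Zfp146, Zfp692, Zfp623, Zfp710 and Zscan29. Zfp146, a protein of 292 residues with 10 finger matches, rose from 404.8 ± 134 to 723.1 ± 25.2 normalized counts (SD, n = 2). WT 1 at 499.7 stood apart from WT 2 at 309.9, and its log2 fold change of 0.84 was 0.53 without WT replicate 2. Zfp692 stood at 340.7 and 326.5 in WT and 504.3 and 497.9 in Lats1/2iΔLgr5, a rise of 0.59 ± 0.20 (SE, log2). The falls were about as small: Zfp623 had 1078 and 1156 in WT and 789.5 and 798.8 in Lats1/2iΔLgr5, a log2 fold change of -0.49 ± 0.16 (SE). Zscan29, which carries a SCAN domain for pairing, went from 945.0 ± 32.4 to 666.2 ± 25.9 (SD, n = 2). Zfp710 went from 1989 ± 349 to 1313 ± 140 (SD, n = 2). These last 3 falls are among those that changed sign on totals of listed counts, to 0.20 for Zfp623, 0.19 for Zscan29 and 0.09 for Zfp710 (log2).

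Zfp genes with few finger matches or none held the largest changes of the DNA-binding members. The C2H2 pattern matched 4 times in Zfp41, 1 time in Zfp395 and not at all in Zfp750. Zfp41 (chromosome 15, 75616679 to 75625300) had 27.8 and 23.2 normalized counts in WT and 84.2 and 81.3 in Lats1/2iΔLgr5. It rose 3.25-fold from the lowest level of any member, a log2 fold change of 1.70 ± 0.43 (SE), and stood at 2.96 normalized counts per kilobase of exon in WT. That exon length is from GENCODE M21, where Zfp41 ends at 75629827, beyond the deposited end, so the value per kilobase may be too low. Zfp41 and Zfp623 start 324.3 kb apart on chromosome 15 and moved in opposite directions. Zfp750, a factor that drives terminal differentiation of the epidermis downstream of p63, had 156.5 and 62.9 in WT and 211.0 and 395.5 in Lats1/2iΔLgr5. Neither pair of libraries was close, and the log2 fold change of 1.47 ± 0.54 (SE) was 2.27 without WT replicate 1 and 0.95 without Lats1/2iΔLgr5 replicate 2. Zfp395 had 256.2 and 130.1 in WT and 431.9 and 415.0 in Lats1/2iΔLgr5, and its log2 fold change of 1.13 ± 0.36 (SE) ranged from 0.72 (WT replicate 2 left out) to 1.70 (WT replicate 1 left out). The scatter of Zfp395 thus lay in WT alone, whereas that of Zfp750 lay in both groups.

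Zfp367 rose from 324.7 ± 95.8 to 597.6 ± 44.8 normalized counts (SD, n = 2). Zfp746, also called PARIS, a repressor of the gene for the mitochondrial coactivator PGC-1α, rose from 320.0 ± 9.62 to 502.3 ± 45.7 (SD, n = 2). In the other direction, Zfp385b had 504.8 and 459.9 in WT and 292.5 and 280.6 in Lats1/2iΔLgr5, a log2 fold change of -0.75 ± 0.21 (SE). Zfp706 encodes a protein of 76 residues with a single finger match and takes part in the exit of embryonic stem cells from self-renewal. Zfp706 had 10139.7 and 8785 normalized counts in WT and 6078 and 5439 in Lats1/2iΔLgr5, and per kilobase of exon it was the most abundant member, at 1900 in WT. Both Lats1/2iΔLgr5 libraries were below both WT libraries. The log2 fold change of Zfp706 was -0.72 ± 0.14 (SE), and -0.36 with TMM (edgeR adjusted p = 0.0739). Its adjusted p was 0.000464 (the authors' deposited table).

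The CCCH and CCHC members bind RNA. Zc3hav1 encodes ZAP, an antiviral protein that binds CpG-rich viral RNA and is itself induced by interferon (chromosome 6, 38305286 to 38354603). It had 4051 and 5346 normalized counts in WT and 2695 and 2267 in Lats1/2iΔLgr5, the largest fall of all 27 genes. Its mean went from 4698 ± 916 to 2481 ± 303 (SD, n = 2). The log2 fold change was -0.92 ± 0.19 (SE) and stayed negative on the 4 scales tried. Its adjusted p was 0.000590 (the authors' deposited table). WT 2, the higher library, was also higher in interferon-induced genes: 19 of 20 were listed, all lower in Lats1/2iΔLgr5, and their summed normalized counts were 13330 in WT 1 and 37595 in WT 2, against 4521 and 3591 in Lats1/2iΔLgr5. Without WT replicate 2 the log2 fold change of Zc3hav1 was -0.71, and the part of these genes in it was not tested. Zc3h7b, also known as RoXaN, rose from 571.0 ± 77.6 to 929.5 ± 131 (SD, n = 2). Its exons overlap those of Rangap1 on the opposite strand over 65 bp. Zcchc14, which recruits tailing polymerases to RNA, had 773.6 and 769.8 in WT and 1114 and 1308 in Lats1/2iΔLgr5, and rose by 0.65 ± 0.17 (SE, log2). The AU-rich element binding proteins Zfp36, Zfp36l1 and Zfp36l2 and the ribonuclease gene Zc3h12a had no row.

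Zmiz1 and Zmynd19 act with other proteins. Zmiz1, a PIAS-like coactivator that works with NOTCH1 (chromosome 14, 25459185 to 25666743), had 4050 and 4511 normalized counts in WT and 2662 and 2782 in Lats1/2iΔLgr5. The log2 fold change was -0.65 ± 0.13 (SE), but -0.29 with TMM (edgeR adjusted p = 0.0703) and 0.04 on totals of listed counts. Its exons overlap an antisense transcript, Zmiz1os1, and the sources used here do not say if reads were counted by strand. Zmynd19, a MYND-domain protein that binds the melanin-concentrating hormone receptor, had 432.8 and 319.8 in WT and 626.5 and 726.9 in Lats1/2iΔLgr5. It rose 1.80-fold.

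Of 24 annotated Zdhhc palmitoyltransferase genes, 4 were listed (16.7%), 3 higher and 1 lower, where 42.9% of all listed genes were higher. Of all annotated protein-coding genes 11.9% were listed, and of the genes the authors tested 20.6%. How many of the 24 were tested was not analysed here, so no excess can be read from these shares. Zdhhc15 (chromosome X, 104536969 to 104671064) had 39.1 and 32.0 normalized counts in WT and 138.5 and 154.8 in Lats1/2iΔLgr5. This was the largest change of any member, a 4.12-fold rise and 2.04 ± 0.37 (SE) on the log2 scale. Its adjusted p was 0.000136 (the authors' deposited table). Without 1 library in turn it ranged from 1.90 to 2.19. Zdhhc17, or HIP14, which palmitoylates huntingtin and SNAP25, had 292.8 and 229.4 in WT and 500.7 and 458.8 in Lats1/2iΔLgr5. Zdhhc8 rose from 139.2 ± 19.1 to 269.9 ± 61.6 (SD, n = 2). The log2 rises were 0.88 ± 0.23 for Zdhhc17 and 0.96 ± 0.30 (SE, log2) for Zdhhc8. Zdhhc20, which palmitoylates the EGF receptor, was the abundant one and fell: it had 5021 and 4794 in WT and 3448 and 3180 in Lats1/2iΔLgr5. Its log2 fold change of -0.57 ± 0.12 (SE) became 0.12 on totals of listed counts. Per kilobase of exon in WT, Zdhhc20 stood at 680.4 normalized counts, Zdhhc17 at 37.0, Zdhhc8 at 28.6 and Zdhhc15 at 6.45, and in Lats1/2iΔLgr5 at 459.5, 68.1, 55.4 and 26.6, so the order of the 4 was the same in both groups.

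Across the 27 genes, the rises sat at low levels and the falls at high ones. The median base mean in the authors' deposited table was 411.2 for the 15 higher members (54.1 to 991.2) and 2681 for the 12 lower ones (384.4 to 7892). Of the 12 lower members, 8 lay above every higher member, from Zfp710 to Zbtb7b. All listed genes showed the same order, with medians of 441.4 for higher and 2774 for lower genes in the authors' deposited table, and nothing here is particular to zinc finger genes.

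**Figure D4:**
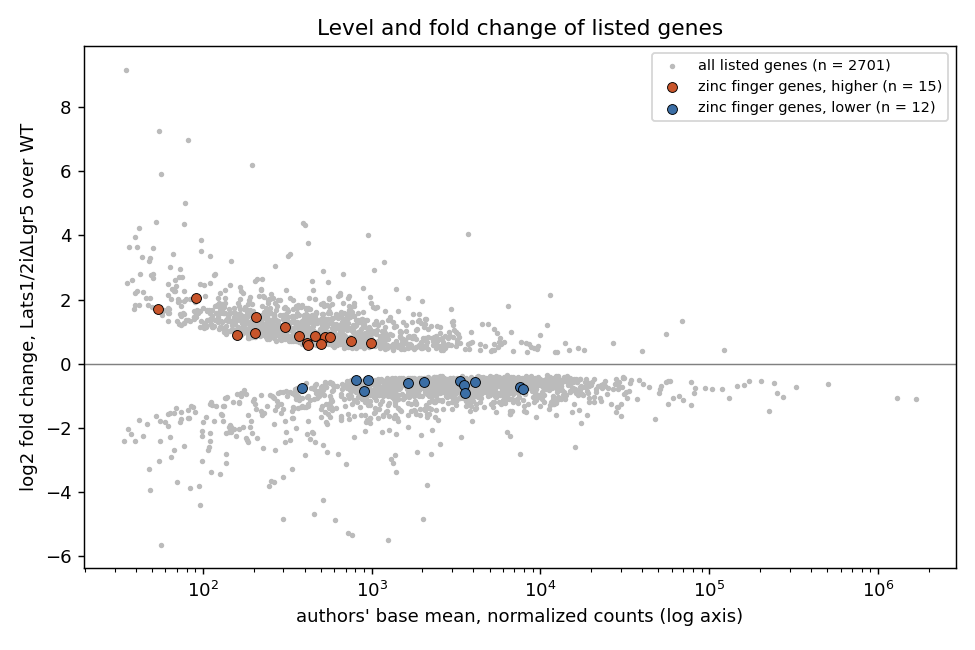
Base mean of each listed gene (normalized counts, log axis) against its log2 fold change (Lats1/2iΔLgr5 over WT), with all 2701 genes in grey and zinc finger genes in orange (higher, 15) and blue (lower, 12). All but 4 zinc finger genes (Zdhhc15, Zfp41, Zfp750 and Zfp395, all higher) lie less than 1 log2 unit from 0. The higher genes lie at a base mean of 991.2 or less and 8 of the lower ones above that.

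Partners of the zinc finger proteins were counted from lists. How many genes of each list were tested was not analysed here, and 20.6% of the genes the authors tested are listed. Of 22 genes of the KRAB corepressor machinery, 8 were listed, 7 higher and 1 lower (median log2 fold change 0.83), where 11.9% of annotated protein-coding genes were listed and 42.9% of listed genes were higher; Atf7ip, the lower one, turned positive on totals of listed counts. Trim28 itself had 1662 and 1451 normalized counts in WT and 2591 and 2975 in Lats1/2iΔLgr5, a rise of 0.84 ± 0.16 (SE, log2). Uhrf1 and Dnmt1, which maintain DNA methylation through replication, rose by 2.04 ± 0.24 and 1.38 ± 0.18, and the histone chaperone gene Nap1l1 by 1.17 ± 0.14 (SE, log2). Proliferation markers moved with them: 14 of 15 were listed and all 14 were higher, with summed normalized counts of 9454 and 14053 in WT and 27690 and 30739 in Lats1/2iΔLgr5, and their part in these values was not tested. Among corepressors and partners of BTB proteins, Mta1 rose by 1.23 ± 0.24 and Hdac7 by 0.96 ± 0.23 (SE, log2), while the Zbtb7 genes fell on the scale of the authors.

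Of 14 palmitoylation partners and depalmitoylases, 6 were listed, where 11.9% of annotated protein-coding genes were. Of the 6, 5 fell and 1 rose, where 57.1% of all listed genes were lower. With TMM none of the 5 falls passed (edgeR adjusted p = 0.05003 for Golga7, the smallest, and 0.0974 for Abhd17a, the highest). The accessory subunit gene Golga7 fell from a mean of 3533 ± 8.01 to 2174 ± 94.6 (SD, n = 2; normalized counts). The depalmitoylase genes Abhd17c and Lypla1 fell from 6780 ± 92.9 to 4314 ± 82.4 and from 4741 ± 512 to 2952 ± 104 (SD, n = 2). Abhd17c and Lypla1 were at 0.04 and 0.003 (log2) on totals of listed counts. Porcn, the acyltransferase of Wnt ligands, rose by 1.11 ± 0.26 (SE, log2). In the list of mRNA decay partners 4 of 27 were listed, 2 higher and 2 lower: Exosc10 (0.71), Khsrp (0.56), Rc3h1 (-0.57) and Rc3h2 (-0.49, log2). Both falls turned positive on totals of listed counts. In the SUMO list 3 of 21 were listed, Sae1 and Uba2 higher by 0.50 and 0.53 and Senp6 at -0.60 (0.09 on totals of listed counts). The counts of the mRNA decay and SUMO lists stand beside the 11.9% of annotated protein-coding genes that were listed. Of the genes the authors tested 20.6% were listed, and how many genes of these lists were tested was not analysed here.

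Zinc finger transcription factors with other names were counted too. How many of these and of the markers below were tested was not analysed here, and 20.6% of the tested genes are listed. Of 91 such genes (Klf, Sp, Gata, Ovol and others), 13 were listed, 1 higher and 12 lower, with a median log2 fold change of -0.83, where 57.1% of all listed genes were lower and 11.9% of annotated protein-coding genes were listed. On totals of listed counts 9 stayed lower, and Klf3, Klf6 and Sp3 turned positive. Klf10 had 3167 and 3129 normalized counts in WT and 1678 and 1740 in Lats1/2iΔLgr5, Ovol1 fell by 1.46 and Ikzf2 by 1.26 on the log2 scale. Klf5, an epithelial growth regulator, was the 1 that rose, by 0.65 on the log2 scale. Epithelial markers moved with the falls: 10 of 20 were listed and all were lower, with Cdh1, Krt8, Krt19 and Cldn18 positive on totals of listed counts. Their summed normalized counts were 4973058 and 5364461 in WT and 2777540 and 2389689 in Lats1/2iΔLgr5, and the part of these markers in the falls was not tested. Most of each sum came from Gkn2 and Gkn1, with base means of 1677172 and 1303711 in the authors' deposited table. Their log2 fold changes there were -1.07 and -1.02, against -0.58 for Krt8 and -0.51 for each of Cdh1, Krt19 and Cldn18. No smooth muscle or enteric neuron marker was listed, but 3 of 11 fibroblast markers (Col3a1, Col1a2 and Mmp2) and 1 of 8 endothelial markers (Kdr) were, all lower on the scale of the authors, with TMM and on totals of listed counts. With TMM none of these 4 passed (edgeR adjusted p from 0.0752 to 0.184). Of 18 immune markers 1 was listed, Cd14, which rose by 1.27 ± 0.21 (SE, log2). The part of these cell types in the values above was not tested.

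Promoters were searched on both strands for GGAATG, the core letters of the motif of TEAD, the DNA-binding partner of YAP, and for CACGTG, the E-box that Myc binds. The windows ran from 250 bases before to 50 after each start, from RefSeq on GRCm38.p6, with 28 windows for 21 members. Zbtb7c, Zfp395, Zfp41, Zfp623, Zfp706 and Zfp750 had no entry. GGAATG was in a window of 1 of the 21 members, against 16.6% of all 27025 genes with an entry, and CACGTG in none, against 8.09%. The match was in Zfp385b, 77 bases before 1 of its 4 starts (chr2:77519723-77519758, minus strand), shown with the motif in capitals.
Zfp385b: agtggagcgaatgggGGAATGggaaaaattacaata
A match is a description of letters, and no binding was measured.

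Library facts bear on all of these values. Listed genes held 13413629 to 17689207 counts per library, and the 27 members 37829 to 46929 of them. Lats1 had 2152 and 1974 normalized counts in WT and 942.5 and 1129 in Lats1/2iΔLgr5, a mean 1.99-fold lower. The labels give both genes as deleted, but Lats2 had no row, so its transcript level was not seen here. All 27 members were called by edgeR on the size factors of the authors (42.9% of listed genes as higher, 57.1% as lower). The DESeq2 Wald test and the fit without a filter on low counts also called 15 higher and 12 lower (42.8% and 57.1% of listed genes in both). Without WT replicate 1, 12 members were called higher and 11 lower (38.4% and 52.4% of listed genes). Without WT replicate 2, 6 were called higher and 8 lower (35.8% and 44.9%). Without Lats1/2iΔLgr5 replicate 1, 2 were called higher and 5 lower (23.2% and 32.4%), and without Lats1/2iΔLgr5 replicate 2 none was. In that last fit 10 members had an unadjusted p under 0.05, and edgeR called 4 of all listed genes higher (0.148%) and 1 lower (0.037%). No member changed direction when any 1 library was left out. With the replicate number as a block, 11 were called higher and 10 lower (40.1% and 53.7%). An exact permutation test of 2 libraries against 2 cannot give a two-sided p below 0.333.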

How the data were processed

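Messenger RNA libraries were strand-marked and read from both ends at 75 bp, per the labels' protocols. The build GRCm38 and the tools HTSeq, DESeq2 and TopHat2 2.1.1 are named, per the submitters' processing notes, without settings. The deposited table holds raw counts per gene and library and, per the file headers, the authors' DESeq2 base mean (a signal of averaged normalized counts), log2 fold change with its standard error, Wald statistic (a score), p-value and adjusted p-value. Its largest adjusted p is 0.05, so genes beyond it were not analysed here.

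Size factors were solved from base means and counts (rebuilt base means within 0.0119%). Normalized counts are counts over these factors. Exon lengths are from GENCODE M21, whose gene ends differ from the deposited ends for some genes. EdgeR 4.0.16 (R 4.3.3), quasi-likelihood test, genotype as the one factor, filterByExpr for calls, Benjamini-Hochberg over listed genes at 0.05, gave fold changes; SE is the fold change over the square root of F. The fit was tested on simulated counts in which most genes were unchanged. The real table holds only selected genes, so that test does not vouch for the calls here. DESeq2 1.42.0 was an alternative. Selection by significance means edgeR calls are not independent of the authors' calls. Deposited starts had 1 added, which matched GENCODE M21 in 2214 of 2698 genes with an annotation. The KRAB-type pattern required 8 of 9 positions of the KRAB A box; it and the C2H2 pattern were changed after first results were seen, and each version run is given with its counts in the report.

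The members, the lists and the naming rule were chosen with earlier results of these data known. Named were a set of 24 regulators where listed (6 were), the 3 smallest adjusted p per subfamily and per list, and the 5 largest and 5 smallest fold changes where the base mean was 50 or more, which gave 19 members. The other 8 (Zfp1, Zfp146, Zfp367, Zfp623, Zfp692, Zfp710, Zfp746 and Zfp809) fall outside it and were chosen after their values were seen. Among the lists the same holds for Klf3, Klf5, Klf6, Sp3, Trim28, Atf7ip, Porcn, Abhd17a, Cdh1, Krt8, Krt19, Cldn18, Gkn1 and Khsrp. Not reported here is the count over the list of BTB partners.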

Additional observations from a re-analysis of the deposited data

How the results depend on the processing

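The DESeq2 Wald test and the fit with no filter on low counts gave the same calls for all 27 zinc finger genes. Calls depended on single libraries and on the scaling. Members called lower numbered 12 on the size factors of the authors, 2 with TMM, 1 with DESeq2 size factors from the listed genes and 0 with totals of listed counts (edgeR; 15 unadjusted p under 0.05 in that last fit, all in rises), and the median log2 fold change of the members was 0.63, 0.99, 1.04 and 1.32. On totals of listed counts the share of members higher was 81.5% in place of 55.6%. Log2 fold changes reversed for 7 members: Zmiz1 (0.044), Zfp710 (0.09), Zdhhc20 (0.12), Zbtb7c (0.14), Zbtb7a (0.17), Zscan29 (0.19) and Zfp623 (0.20). The Zbtb median reversed as well (0.14). The median of the 2 Zc3h genes, -0.11, reversed to 0.25 with TMM, 0.30 with DESeq2 size factors and 0.59 with totals; its members moved in opposite directions. Leaving out 1 library, members called higher ranged from 0 (without Lats1/2iΔLgr5 replicate 2) to 12, members called lower from 0 (the same library) to 11, and the median log2 fold change from 0.55 to 0.65. With the replicate block, 11 members were called higher and 10 lower. Same-numbered libraries correlated at -0.16 in their deviations from the group means, and the labels give the numbers no meaning as pairs. The share of KRAB-type genes that were listed was 1.25% to 1.57% over 3 versions of the pattern, 2 of them added after seeing the data.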
